A study of Mus musculus with 768 samples.

Results

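Ctgf, Cyr61, Nov, Wisp1 and Wisp2 encode secreted matricellular proteins of the CCN family, and Ankrd1 and Amotl2 are commonly used, with Ctgf and Cyr61, as readouts of the transcriptional co-activator YAP. These 7 genes were chosen by name from the 24490 endogenous genes of the deposited tables, and all 7 were found. They were followed in single cells sorted as EpCAM-, CD45-, CD31- and NG2- from mammary tumors of 14-week-old FVB/N-Tg(MMTVPyVT)634Mul/J mice, in which the polyomavirus middle T antigen is driven by the MMTV promoter in the mammary epithelium. The sort was by exclusion, so the wells hold whatever cells lacked the 4 surface proteins. Smart-seq2 libraries were made from 768 wells with 1 cell each, an equal number from tumor 1 and tumor 2, each tumor on a plate of its own. There was no treatment and no control group, and the comparison made here is between kinds of cells within the same 2 tumors. The tumor is the replicate (n = 2), and tumor and plate cannot be told apart.

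Of the 768 wells, 41 with under 10000 reads on genes other than the ERCC spike-ins were left out (11 of tumor 1 and 30 of tumor 2), and the wells kept had a median of 207477 reads. A well was placed in a class by the highest of Rgs5, Dcn and Trf on the log2(RPKM + 1) scale, provided that it reached 5 and stood 2 above the other genes. Rgs5 encodes a signalling regulator of mural cells, Dcn the matrix proteoglycan decorin, and Trf the iron carrier transferrin. This gave 82 and 75 Dcn-high wells in tumors 1 and 2, 7 and 20 Trf-high wells, and 19 and 21 wells without a class, and the rest were Rgs5-high, 71.05% and 67.2% of the wells kept. Within 1 log2 unit of a limit of the rule lay 43 wells, of which 22 had a class. The cuts therefore describe ranges of 3 genes. For the names vascular, matrix and developmental cancer-associated fibroblast (CAF), other markers are set beside the classes. Many of these markers were named by the paper for its populations from these same wells, so they are no independent check.

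With Rgs5, Dcn and Trf themselves left out of the marker lists, the vascular markers summed to 12341 and 13927 CPM (the reads of a gene divided by all non-ERCC reads of the summed wells, times 1000000) in the Rgs5-high wells of tumors 1 and 2, against 267.6 to 558.6 in the other classes. The matrix markers summed to 17242 and 16621 CPM in Dcn-high wells, to 437.4 and 707.6 in Rgs5-high wells and to 4448 and 3352 in Trf-high wells. The developmental markers summed to 10233 and 11177 CPM in Trf-high wells and to at most 1227 elsewhere. Trf-high wells also carried S100b, a gene of glia and of several other lineages, in 85.2% of wells. In the 7 Trf-high wells of tumor 1 the epithelial list summed to 1758 CPM, led by Krt14 at 550.8 CPM, against 263.2 in the Trf-high wells of tumor 2 and 5.68 to 30.5 in the other classes. Krt14 had a read in 7.41% of the Trf-high wells of both tumors together, and none in tumor 2. Of the 8 epithelial genes, 1 had a median above 0 in the Trf-high wells of tumor 1. An Epcam read was found in 8 of the 27 Trf-high wells. The Trf-high library of tumor 1 thus stood apart in its summed epithelial reads and held 7 wells. Among endothelial genes Emcn was at 111.3 and 198.2 CPM in Rgs5-high wells with Pecam1 and Cdh5 at 0, and the immune list reached at most 5.49 CPM and the adipocyte list 0.0418 CPM. A read alone was a weak sign of expression for abundant genes, since Rgs5 had a read in 89.8% of Dcn-high wells, at a median level of 2.81 against 12.4 in Rgs5-high wells, and reached a level of 5 in 4.88% and 4.0% of them in tumors 1 and 2. The part that these reads play in the shares below was not tested, so shares at higher limits are given beside them.

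CCN proteins are multi-domain proteins of the extracellular matrix that bind integrins, the receptor LRP1 and heparan sulfate proteoglycans such as syndecan-4, and they modulate adhesion, migration and matrix production. Ctgf and Cyr61 have served as marker genes of YAP and TAZ, which enter the nucleus when the Hippo kinases LATS1 and LATS2 are inactive, bind the TEAD factors and turn on transcription. Ankrd1 encodes an ankyrin repeat protein of muscle and stretched cells, and Amotl2 encodes an angiomotin that holds YAP at junctions and actin and so feeds back on it. In fibroblasts this program is linked to stiffness and contraction.

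The windows of 250 bases before and 50 bases after a transcription start of RefSeq (build GRCm38.p6, the assembly of mm10) were read for 3 of the 7 genes, and they are shown because TEAD factors bind the letters CATTCC. Capitals mark CATTCC or its reverse complement GGAATG, searched on both strands. The Amotl2 gene begins at chr9:102717091, before its window, so the start used for it lies inside the gene. The windows are chr3:145649936-145650235 on the minus strand for Cyr61 (RefSeq symbol Ccn1), chr19:36119795-36120094 on the minus strand for Ankrd1 and chr9:102717554-102717853 on the plus strand for Amotl2, written 5′ to 3′.
Cyr61: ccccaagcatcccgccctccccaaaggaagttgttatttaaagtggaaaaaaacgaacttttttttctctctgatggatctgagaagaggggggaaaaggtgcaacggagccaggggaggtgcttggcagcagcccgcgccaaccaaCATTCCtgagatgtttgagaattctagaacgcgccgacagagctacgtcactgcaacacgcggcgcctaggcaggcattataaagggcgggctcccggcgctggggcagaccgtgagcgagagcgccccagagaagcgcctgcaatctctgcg
Ankrd1: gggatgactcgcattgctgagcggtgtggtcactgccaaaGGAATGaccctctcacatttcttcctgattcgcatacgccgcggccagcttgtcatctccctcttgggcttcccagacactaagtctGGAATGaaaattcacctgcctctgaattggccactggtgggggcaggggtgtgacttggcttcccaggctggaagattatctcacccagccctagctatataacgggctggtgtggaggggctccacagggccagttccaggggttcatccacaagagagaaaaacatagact
Amotl2: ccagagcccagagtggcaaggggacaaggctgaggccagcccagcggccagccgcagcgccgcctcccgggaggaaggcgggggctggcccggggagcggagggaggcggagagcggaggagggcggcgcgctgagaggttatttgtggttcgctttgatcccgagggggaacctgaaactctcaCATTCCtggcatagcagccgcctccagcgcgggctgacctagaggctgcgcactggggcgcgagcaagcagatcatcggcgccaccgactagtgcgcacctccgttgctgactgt
Counted in bases from the start used for each window, the match lay at -103 in Cyr61 and at -65 in Amotl2, and Ankrd1 had 2 matches, at -210 and -123. At least 1 match was present in 14.7% of all 32851 windows of the same length and at least 2 in 1.33%. A match is a string of letters and not a measured binding site. The windows of Ctgf, Nov, Wisp1 and Wisp2 were not analysed here, so nothing is said of the 7 genes as a set. The other genes lie at chr10:24595442-24598683 (Ctgf, RefSeq Ccn2), chr15:54745910-54753762 (Nov, Ccn3), chr15:66891369-66923201 (Wisp1, Ccn4) and chr2:163820752-163833146 (Wisp2, Ccn5).

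Per length of gene model, Ctgf and Cyr61 were by far the most abundant of the 7 transcripts in every class, and the 7 genes did not share an order over the classes. Mean RPKM of Ctgf was 810.5 ± 136.3 in Rgs5-high, 638.4 ± 383.3 in Dcn-high and 256.2 ± 172.98 in Trf-high wells (mean of the tumor means ± SD, n = 2 tumors, as for all values with ± below). Cyr61 stood at 476.03 ± 73.7, 575.3 ± 23.3 and 407.5 ± 272.6 RPKM in the same order. In Dcn-high wells Wisp1 was at 80.05 ± 1.59, Wisp2 at 31.95 ± 5.41, Ankrd1 at 24.5 ± 24.1 and Amotl2 at 17.6 ± 0.32 RPKM, and in Trf-high wells Wisp2 was at 32.5 ± 45.9 RPKM. Nov, Wisp2 and Ankrd1 were read in few wells of any class. A lower level of a summed library can mean fewer cells with the transcript or less of it in each cell, which cannot be told apart in the sum, and shares of wells are given beside it.

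**Figure D1:**
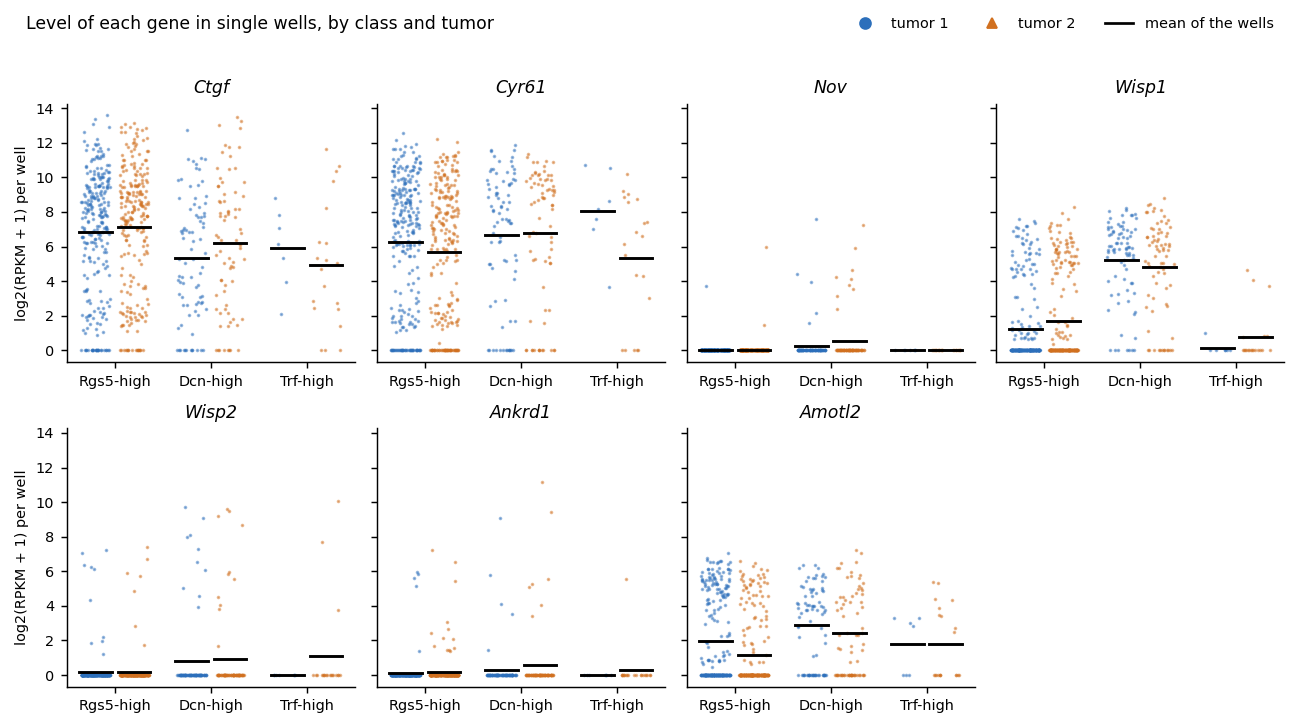
Level of each gene in every well with a class, as log2(RPKM + 1) on the vertical axis, with 1 point per well, tumor 1 in blue, tumor 2 in orange and a black bar at the mean of the wells. The bars of Wisp1 lie at 1.20 and 1.70 in Rgs5-high wells and at 5.25 and 4.84 in Dcn-high wells, while the points of Ctgf and Cyr61 run from 0 to above 11 within both of these classes.

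Ctgf, encoding connective tissue growth factor, had 2115 and 2909 CPM in the Rgs5-high libraries of tumors 1 and 2, 1045 and 2828 CPM in the Dcn-high libraries and 304.6 and 1194 CPM in the Trf-high libraries. Rgs5-high and Trf-high libraries did not overlap, whereas the Dcn-high pair spread over most of the range. The mean level was 6.98 ± 0.18 log2(RPKM + 1) in Rgs5-high, 5.75 ± 0.63 in Dcn-high and 5.42 ± 0.67 in Trf-high wells, and Dcn-high and Trf-high wells, neighbours in that order, differed by less than their SD. A Ctgf read was found in 90.6% and 93.3% of Rgs5-high wells, 85.4% and 89.3% of Dcn-high wells and 100.0% and 85% of Trf-high wells. With each well thinned to 50000 reads the shares were 83.2% and 84.8%, 72.7% and 84.5%, and 85.7% and 56.3%, after leaving out 9 and 15 Rgs5-high, 5 and 4 Dcn-high, and 0 and 4 Trf-high wells. At a level of at least 5, the shares were 73.6% and 72.7% in Rgs5-high wells, 52.4% and 62.7% in Dcn-high wells and 71.4% and 50% in Trf-high wells. Ctgf was thus read in most wells of all 3 classes.

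The reads of Ctgf were unevenly spread over wells. The tenth of wells with the most Ctgf reads held 61.9% and 67.99% of the reads of the Rgs5-high libraries and 71.5% and 81.9% of those of the Dcn-high libraries. In Trf-high wells of tumor 2, 1 well held 55.3% of all Ctgf reads. Within the Trf-high class, 5 wells of tumor 2 with an Epcam read had 5076 CPM and the 15 others 524.99 CPM, while in tumor 1 the values were 330.5 and 288.7 CPM. The well with 55.3% of the reads was 1 of these 5 and held 2412 of their 2727 Ctgf reads. The Ctgf fold change of Rgs5-high against Trf-high wells was 1.88 ± 0.76 on the log2 scale (SE, edgeR adjusted p = 0.177), 1.21 without the Trf-high library of tumor 1 (edgeR adjusted p = 0.211) and 2.76 without all wells with an Epcam read (edgeR adjusted p = 0.030). Without the Trf-high library of tumor 1 a single Trf-high library is left, which the fit assumes to vary as the Rgs5-high and Dcn-high libraries do, so every adjusted p of that setting against Trf-high wells carries no spread of the Trf-high class. The setting without Epcam wells also left out 8 and 19 Rgs5-high and 6 and 10 Dcn-high wells, and the part of the 8 Trf-high wells alone was not tested.

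Cyr61, the founding CCN gene and an immediate early gene, gave 1301 and 1118 CPM in Rgs5-high, 1393 and 1444 CPM in Dcn-high and 1262 and 551.8 CPM in Trf-high libraries. The Dcn-high libraries were the highest pair, but the distance to Rgs5-high was small, with a log2 fold change of -0.52 ± 0.41 (SE, edgeR adjusted p = 0.678) for Rgs5-high against Dcn-high. Against Trf-high wells it was 0.55 for Rgs5-high wells (edgeR adjusted p = 0.448) and 1.07 for Dcn-high wells (edgeR adjusted p = 0.165), and with the 1 Trf-high library left without that of tumor 1, whose spread is borrowed from the other classes, these were 1.27 (edgeR adjusted p = 0.014) and 1.80 (edgeR adjusted p = 0.0061). The mean level was 5.97 ± 0.42 log2(RPKM + 1) in Rgs5-high, 6.74 ± 0.07 in Dcn-high and 6.68 ± 1.93 in Trf-high wells, so Dcn-high and Trf-high wells, next to each other in that order, did not differ beyond their spread. A read was found in 84.2% and 80.7% of Rgs5-high, 84.1% and 82.7% of Dcn-high and 100.0% and 75% of Trf-high wells. At a level of at least 5 the shares were 67.9% and 62.2% in Rgs5-high, 73.2% and 76% in Dcn-high and 85.7% and 60% in Trf-high wells. The 7 Trf-high wells of tumor 1 all had a Cyr61 read, with an exact 95% interval of 59.04% to 100.0%, and 1 of them held 40.9% of the reads.

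Ctgf and Cyr61 were both read in 76.6% and 78.2% of the Rgs5-high wells of tumors 1 and 2, where the product of their shares was 76.2% and 75.2%, and neither was read in 5 and 10 wells. In Dcn-high wells both were read in 61 of 82 and 57 of 75, and neither in 4 and 3. Ctgf without Cyr61 was the commoner of the unshared states in Rgs5-high wells (37 and 36 wells, against 20 and 6 with Cyr61 only), and in Dcn-high wells the counts were 9 and 10 against 8 and 5.

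Wisp1, a CCN gene known as a target of Wnt signalling and as a product of matrix-forming fibroblasts and bone cells, had 81.6 and 104.3 CPM in Rgs5-high, 455.3 and 484.9 CPM in Dcn-high and 0.551 and 22.7 CPM in Trf-high libraries. No library of one class overlapped one of another. The Trf-high value of tumor 1 was a single read. A read was found in 29.8% and 36.6% of Rgs5-high wells, 91.5% and 84% of Dcn-high wells and 14.3% and 30.0% of Trf-high wells. Thinning to 50000 reads left 23.8% and 31.8% against 88.3% and 80.3%, and the shares at a level of at least 5 were 12.1% and 21.4% against 69.5% and 61.3%, with 0 Trf-high wells at that level. The mean level was 1.45 ± 0.35 log2(RPKM + 1) in Rgs5-high, 5.04 ± 0.29 in Dcn-high and 0.44 ± 0.42 in Trf-high wells. Among the wells with a read the median level was still 4.67 and 5.18 in Rgs5-high wells, against 5.99 and 6.09 in Dcn-high wells. Wisp1 was therefore read in fewer Rgs5-high wells, and where it was read the difference in level was smaller.

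With all wells and all 6 libraries, and without the block, edgeR called 1 of the 6 genes tested, Wisp1, in 1 of the 3 comparisons. Its log2 fold change was 5.66 ± 1.14 for Dcn-high against Trf-high (SE, edgeR adjusted p = 0.036) and higher in both tumors, with CPM ratios of 827 in tumor 1, where the Trf-high library held a single read, and 21.4 in tumor 2. Without the Trf-high library of tumor 1 it was 4.81 (edgeR adjusted p = 0.0015, with 1 Trf-high library and the spread of the other classes). The call was lost with the tumor as a block (6.05, edgeR adjusted p = 0.057) and with no margin in the class rule (4.75, edgeR adjusted p = 0.083). The comparison of Rgs5-high with Dcn-high gave -2.63 ± 0.97 (edgeR adjusted p = 0.242), with CPM ratios of 0.179 in tumor 1 and 0.215 in tumor 2. All 6 libraries shared an estimate of the spread in this test. Without the Trf-high library of tumor 1 the fold change was again -2.63, with an edgeR adjusted p of 0.0013. Rgs5-high against Trf-high was 3.03 (edgeR adjusted p = 0.121), and 2.17 without that library (edgeR adjusted p = 0.0053, again with 1 Trf-high library).

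**Figure D2:**
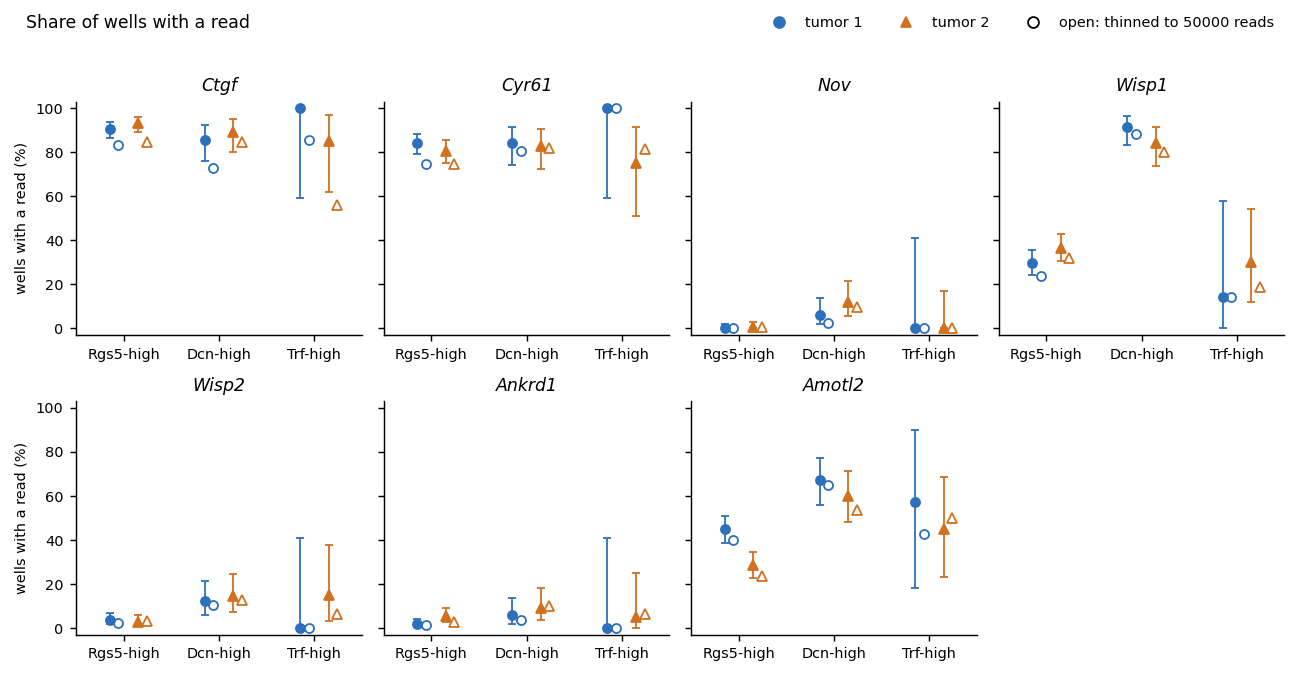
Share of wells with a read of each gene (vertical axis, %) by class, tumor 1 as blue circles and tumor 2 as orange triangles, filled as measured with exact 95% binomial intervals and open after thinning to 50000 reads. Wisp1 was read in 84% to 91.5% of Dcn-high wells and 29.8% to 36.6% of Rgs5-high wells, and Ctgf and Cyr61 in at least 75% of the wells of each class.

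Wisp2, which encodes a CCN protein without the C-terminal domain of the others, was rare. It had 4.19 and 2.94 CPM in Rgs5-high, 43.5 and 78.3 CPM in Dcn-high and 0 and 73.9 CPM in Trf-high libraries. A read was present in 10 and 7 Rgs5-high, 10 and 11 Dcn-high, and 0 and 3 Trf-high wells, and a count of 0 in 7 wells allows a share of up to 42.9%. All 270 Trf-high reads of Wisp2 came from 3 wells that also had an Epcam read. The mean level was 0.16 ± 0.01 log2(RPKM + 1) in Rgs5-high, 0.87 ± 0.06 in Dcn-high and 0.54 ± 0.76 in Trf-high wells, and the Trf-high mean could not be told from either. Single wells held 58.5% and 38.6% of the Dcn-high reads. The log2 fold change of Rgs5-high against Dcn-high was -4.38 ± 1.78 (SE, edgeR adjusted p = 0.292), and -4.38 without the Trf-high library of tumor 1 (edgeR adjusted p = 0.0028). The direction against Trf-high wells depended on the wells kept. Rgs5-high against Trf-high was -3.25 ± 1.70 with all wells (edgeR adjusted p = 0.283), -4.23 without the Trf-high library of tumor 1 (edgeR adjusted p = 0.0040, with 1 Trf-high library and the spread of the other classes) and 9.37 without the wells with Epcam, where no Trf-high read is left and the fitted fold is no bound.

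Nov, a CCN protein of mesenchymal and neural tissues, was nearly silent. Its reads numbered 8 and 70 in Rgs5-high, 56 and 270 in Dcn-high and 0 and 0 in Trf-high libraries, in 1 and 2, 5 and 9, and 0 and 0 wells. The mean level was 0.38 ± 0.20 log2(RPKM + 1) in Dcn-high wells. Its mean RPKM over the wells was too low for the filter of the test, and it was the only one of the 7 genes left out. In Dcn-high wells Nov was at 2.498 and 15.5 CPM, and 1 well held 64.4% of the reads of tumor 2. In the Trf-high libraries 3 reads would have given 1.65 and 0.821 CPM. One Rgs5-high well held 69 of the 70 reads of tumor 2. In 27 Trf-high wells a count of 0 allows a share of wells with a read of up to 11.1%.

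Amotl2 had 85.7 and 37.8 CPM in Rgs5-high, 85.4 and 96.03 CPM in Dcn-high and 25.9 and 45.96 CPM in Trf-high libraries. The Rgs5-high value of tumor 1 was within 1 CPM of the Dcn-high one, and that of tumor 2 lay below both Dcn-high libraries. A read was found in 44.9% and 28.6% of Rgs5-high wells, 67.1% and 60% of Dcn-high wells and 57.1% and 45% of Trf-high wells, and the mean level was 1.55 ± 0.57, 2.65 ± 0.32 and 1.78 ± 0.01 log2(RPKM + 1). Trf-high and Rgs5-high wells, next to each other in that order, did not differ beyond their spread. At a level of at least 5 the shares were 21.5% and 10.9% in Rgs5-high, 19.5% and 18.7% in Dcn-high and 0% and 10% in Trf-high wells, so Rgs5-high and Dcn-high wells overlapped there. The fold change of Dcn-high against Trf-high was 1.76 ± 0.51 on the log2 scale (SE, edgeR adjusted p = 0.088), and DESeq2 gave 1.74 with an adjusted p of 0.013.

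Ankrd1 was at 2.07 and 3.30 CPM in Rgs5-high, 16.2 and 151.6 CPM in Dcn-high and 0 and 7.11 CPM in Trf-high libraries. It was read in 5 and 13 Rgs5-high wells, 5 and 7 Dcn-high wells and 0 and 1 Trf-high wells. The mean level was 0.13 ± 0.05 log2(RPKM + 1) in Rgs5-high, 0.44 ± 0.21 in Dcn-high and 0.14 ± 0.20 in Trf-high wells. Few wells carried nearly all of it, since 1 well held 85.4% of the Dcn-high reads in tumor 1 and 1 well 74.2% in tumor 2, where it reached 2281 RPKM. The log2 fold change of Rgs5-high against Dcn-high was -5.24 ± 1.57 (SE, edgeR adjusted p = 0.146), -3.91 without the well with the most reads in each library (edgeR adjusted p = 0.289), and -5.24 without the Trf-high library of tumor 1 (edgeR adjusted p = 0.037). DESeq2 gave -5.24 as well, with an adjusted p of 0.0052. The only Trf-high well with Ankrd1 also had an Epcam read.

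**Figure D3:**
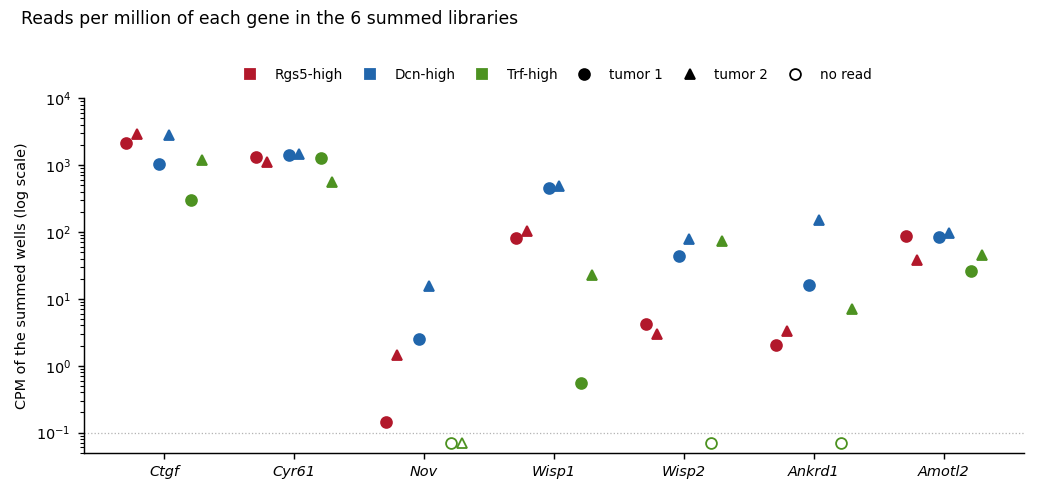
CPM of each gene in the 6 libraries made by summing the wells of a class and a tumor, on a log axis, coloured by class, circles for tumor 1 and triangles for tumor 2, with open symbols below the dotted line for libraries without a read. The pairs of Wisp1 do not overlap between the 3 classes, and they run from 0.551 to 22.7 CPM in Trf-high and from 455.3 to 484.9 CPM in Dcn-high libraries. The pairs of Wisp1 in Trf-high and of Ctgf and Ankrd1 in Dcn-high libraries are wide.

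Read against all genes, the share of these genes called was as follows. For Rgs5-high against Dcn-high 0 of the 6 genes tested were called at an edgeR adjusted p of 0.05, where 5.88% of 11715 genes were, 2.07% higher and 3.81% lower in Rgs5-high wells. At an unadjusted p under 0.05 the count was 2, where 17.6% of all genes passed, and DESeq2 called 1, where it called 14.9% of genes. The median log2 fold change of the 6 genes was -1.74, against 0.038 for all genes tested. For Rgs5-high against Trf-high edgeR called 0 of 6 where 12.8% of genes were called (7.78% higher and 5.04% lower), with 1 gene under an unadjusted p of 0.05 (28.2% of all genes) and 1 called by DESeq2 (26.2%). The medians were 0.73 and 0.13. For Dcn-high against Trf-high it called 1 of 6, Wisp1, where 11.5% of genes were called (8.07% higher and 3.41% lower), with 4 genes under an unadjusted p of 0.05 (27.7% of all genes) and 3 called by DESeq2 (25.4%). The medians were 1.78 and 0.12. The 3 comparisons share libraries and are not independent.

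Without the Trf-high library of tumor 1 the counts became 3 of 6 for Rgs5-high against Dcn-high (Wisp1, Wisp2 and Ankrd1, all lower in Rgs5-high wells), where 16.1% of genes were called, 3 for Rgs5-high against Trf-high (Cyr61, Wisp1 and Wisp2), where 22.1% were, and 2 for Dcn-high against Trf-high (Cyr61 and Wisp1), where 21.4% were. The counts against Trf-high wells then rest on 1 Trf-high library with the spread of the other classes. In the same order of comparisons, the fit with the tumor as a block called 0, 0 and 0 of the 6 genes, where 3.0%, 8.21% and 7.1% of all genes were called, and leaving out the wells with Epcam gave 1, 2 and 4, where 4.06%, 10.0% and 8.98% were. These were Wisp2, then Ctgf and Wisp2, and then Ctgf, Wisp1, Wisp2 and Ankrd1, and no Trf-high read of Wisp2 or Ankrd1 was left in that setting. In CPM, the 2 libraries of each class did not overlap for 4 of the 6 genes between Rgs5-high and Dcn-high wells (Cyr61, Wisp1, Wisp2 and Ankrd1, all lower in Rgs5-high wells), where 67.1% of all genes tested did not overlap. Between Rgs5-high and Trf-high wells this held for 2 (Ctgf and Wisp1), with 59.5% of all genes, and between Dcn-high and Trf-high wells for 4 (Cyr61, Wisp1, Ankrd1 and Amotl2), with 58.4%. ERCC reads took a median of 14.3% and 12.4% of the reads in Rgs5-high wells, 6.18% and 6.23% in Dcn-high wells and 14.4% and 6.05% in Trf-high wells. With ERCC totals as the library size, the median of all genes moved by -0.67 for Rgs5-high against Dcn-high, and 15.2% of the called genes were higher in place of 35.3%. The sign of Ctgf turned from 0.090 to -0.57. For Rgs5-high against Trf-high the shift was -0.65, where 31.2% of the called genes were higher in place of 60.7% and the sign of Cyr61 turned from 0.55 to -0.066. For Dcn-high against Trf-high it was 0.023.

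Shares of called genes in the lists below are to be read against 5.88%, 12.8% and 11.5% of all genes called for Rgs5-high against Dcn-high, Rgs5-high against Trf-high and Dcn-high against Trf-high. Of 17 Hippo kinases and regulators 15 were tested, and edgeR called 0 for Rgs5-high against Dcn-high (1 at an unadjusted p under 0.05, 1 by DESeq2), 0 for Dcn-high against Trf-high (1 and 1) and 1 for Rgs5-high against Trf-high, a smaller share than the 12.8% of all genes. That gene was Taok3, a kinase upstream of the Hippo core, at 66.4 and 63.9 CPM in Rgs5-high and 15.97 and 6.57 CPM in Trf-high libraries (log2 fold change 2.69 ± 0.53, SE, edgeR adjusted p = 0.030), a call that was lost with the tumor as a block and without the wells with Epcam. The median log2 fold change of the list was 0.13, 0.27 and 0.26 for Rgs5-high against Dcn-high, Rgs5-high against Trf-high and Dcn-high against Trf-high, beside 0.038, 0.13 and 0.12 for all genes.

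Among 8 YAP, TAZ and TEAD factors, 7 were tested, and edgeR called 0 higher and 1 lower for Rgs5-high against Dcn-high, 2 higher for Rgs5-high against Trf-high and 2 higher for Dcn-high against Trf-high, all of them Vgll3 or Tead3, where 5.88%, 12.8% and 11.5% of all genes were called, with medians of -0.27, 0.39 and 0.71. Vgll3, a cofactor that binds TEAD factors in place of YAP, rose in Dcn-high wells, with 193.2 and 148.8 CPM there, 26.3 and 17.1 CPM in Rgs5-high and 0.551 and 1.09 CPM in Trf-high libraries. Its log2 fold changes were -3.28 for Rgs5-high against Dcn-high (edgeR adjusted p = 0.012) and 8.01 ± 0.53 for Dcn-high against Trf-high (SE, edgeR adjusted p = 0.0021). The order of the classes in Vgll3 was that of Wisp1. Tead3 had 43.7 and 43.2 CPM in Rgs5-high, 24.3 and 26.2 CPM in Dcn-high and 1.65 and 4.92 CPM in Trf-high libraries, and fell in Trf-high wells against Rgs5-high wells (3.79 ± 0.61 for Rgs5-high against Trf-high, SE, edgeR adjusted p = 0.017). Yap1 and Wwtr1, which encode YAP and TAZ, were read in 61.6% and 88.6% of the wells with a class and were not called in any comparison. Yap1 was at 85.3 and 124.9 CPM in Rgs5-high, 53.5 and 59.4 CPM in Dcn-high and 106.3 and 129.4 CPM in Trf-high libraries.

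All 18 other YAP and TAZ targets were tested. For Rgs5-high against Dcn-high edgeR called 2 higher and 1 lower, for Rgs5-high against Trf-high 6 higher and 2 lower, and for Dcn-high against Trf-high 4 higher and 0 lower, where 5.88%, 12.8% and 11.5% of all genes were called. The median log2 fold changes were -0.15, 1.65 and 1.57, beside 0.038, 0.13 and 0.12 for all genes. Igfbp3, an insulin-like growth factor binding protein, was lower in Rgs5-high wells, at 31.1 and 24.3 CPM against 859 and 466.8 CPM in Dcn-high libraries (-4.88 ± 0.71, SE, edgeR adjusted p = 0.022). Myof, a membrane repair protein, was lower in Trf-high wells than in Dcn-high wells (2.61 ± 0.31, SE, edgeR adjusted p = 0.0081). Arhgef17, a guanine nucleotide exchange factor, was higher in Rgs5-high wells, at 314.3 and 406.8 CPM against 63.2 to 74.1 CPM in the 4 other libraries.

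Of 9 genes of CCN receptors, all tested, edgeR called 0 higher and 2 lower for Rgs5-high against Dcn-high, 3 and 2 for Rgs5-high against Trf-high, and 3 and 3 for Dcn-high against Trf-high, where 5.88%, 12.8% and 11.5% of all genes were called, with medians of -0.62, -0.17 and 0.29. Itgb5, an integrin subunit that pairs with integrin alpha V, stood at 759.04 and 754.4 CPM in Dcn-high, 468.9 and 442.5 CPM in Rgs5-high and 177.4 and 149.4 CPM in Trf-high libraries (2.64 ± 0.21 for Dcn-high against Trf-high, SE, edgeR adjusted p = 0.0029). Itga5, the fibronectin receptor subunit, followed the same order with 0 and 5.74 CPM in Trf-high libraries. Sdc4, encoding syndecan-4, was instead higher in Trf-high wells, at 468.2 and 397.5 CPM against 53.9 to 92.01 CPM in the other libraries (-2.68 ± 0.25 for Rgs5-high against Trf-high, SE, edgeR adjusted p = 0.0035). Itga6, a laminin receptor subunit, was at 661.5 and 585.7 CPM in Trf-high libraries, 0 and 4.54 CPM in Dcn-high libraries and 32.4 and 48.7 CPM in Rgs5-high libraries, and the difference between Dcn-high and Trf-high passed the test (-7.72 ± 1.71, SE, edgeR adjusted p = 0.045).

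Of 9 SRF and contractile genes, edgeR called 1 higher for Rgs5-high against Dcn-high, 4 higher for Rgs5-high against Trf-high, 1 higher for Dcn-high against Trf-high and 0 lower in these comparisons, where 5.88%, 12.8% and 11.5% of all genes were called, with medians of 0.81, 1.32 and 0.47. Acta2, the smooth muscle actin, was at 5202 and 3995 CPM in Rgs5-high, 939 and 1557 CPM in Dcn-high and 676.4 and 1150 CPM in Trf-high libraries. Myl9, a myosin light chain, was the gene called between Rgs5-high and Dcn-high wells (2.42 ± 0.32, SE, edgeR adjusted p = 0.017). Tagln and Vcl, encoding transgelin and vinculin, were higher in Rgs5-high than in Trf-high wells, by 2.54 and 3.23 on the log2 scale. None of 18 immediate early genes was called by edgeR in any of the 3 comparisons, with 2, 1 and 4 at an unadjusted p under 0.05 and 0, 1 and 2 called by DESeq2 for Rgs5-high against Dcn-high, Rgs5-high against Trf-high and Dcn-high against Trf-high, where 17.6%, 28.2% and 27.7% of all genes had such a p and DESeq2 called 14.9%, 26.2% and 25.4%. Their medians were -0.50, 0.67 and 0.99. The lists' counts depended on the design. For Rgs5-high against Dcn-high, Rgs5-high against Trf-high and Dcn-high against Trf-high, the block gave 0, 0 and 0 Hippo regulators, 1, 2 and 1 TEAD factors and cofactors, 2, 7 and 5 other targets, 1, 4 and 4 receptors, and 1, 3 and 0 contractile genes, where 3.0%, 8.21% and 7.1% of all genes were called. Of the list genes named with an adjusted p, the block ended the calls of Taok3 (edgeR adjusted p = 0.062), Igfbp3 (0.060) and Itga6 (0.070). Without the Trf-high library of tumor 1, these 3 calls held, at edgeR adjusted p of 0.0045, 0.0019 and 0.027. Without the Trf-high library of tumor 1, the calls for Rgs5-high against Dcn-high rose to 3 Hippo regulators, 7 other targets, 3 contractile genes and 3 immediate early genes, while the share of all genes called rose from 5.88% to 16.1%. The Trf-high library of tumor 1 stood apart here, with Fos, a transcription factor of this group, at 484.2 CPM against 2420 to 4443 CPM in the other 5 libraries.

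**Figure D4:**
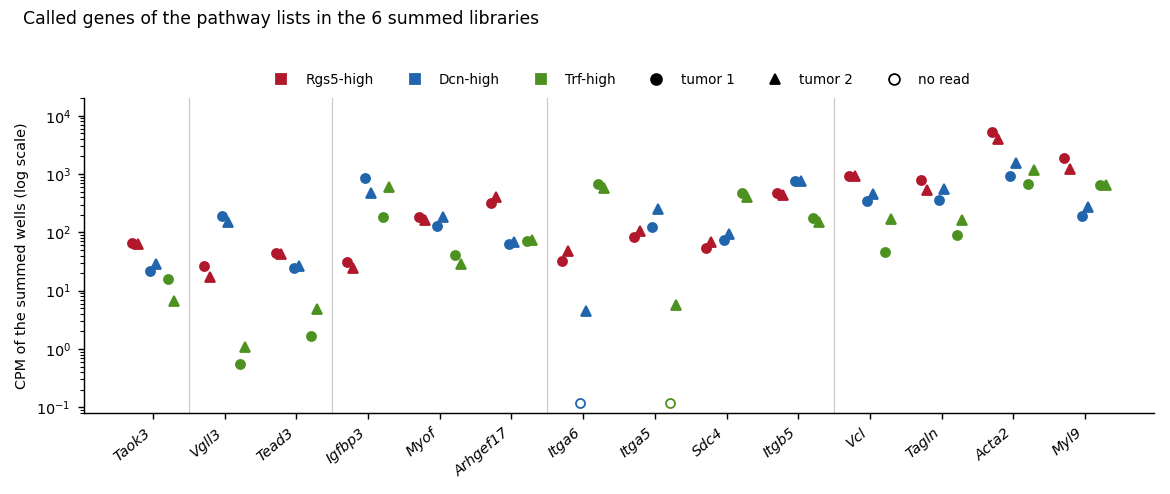
CPM on a log axis of the called genes named from the lists of Hippo regulators, TEAD factors and cofactors, YAP and TAZ targets, CCN receptors and contractile genes (left to right, separated by grey lines), with colours and symbols for class and tumor as in the plot of the 7 genes, and open symbols for libraries without a read. Vgll3 is highest in the Dcn-high libraries, at 193.2 and 148.8 CPM, and lowest in the Trf-high libraries, and Itga6 and Sdc4 are highest in Trf-high libraries.

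Over single wells of the same class and tumor, Ctgf and Cyr61 varied together. Pearson's r of their log2(RPKM + 1) was 0.43 and 0.52 in Rgs5-high wells of tumors 1 and 2, and 0.30 and 0.39 in Dcn-high wells (82 and 75 wells). Spearman's rank correlation was 0.48, 0.55, 0.31 and 0.46. In the 20 Trf-high wells of tumor 2, r was 0.20. These are descriptions without a test, since wells of a tumor are not replicates and share their plate and depth. For comparison, r of Cyr61 with log10 of the reads per well was 0.16 and 0.24 in Rgs5-high and 0.31 and 0.45 in Dcn-high wells. With the number of genes read per well it was 0.14 and 0.26, and 0.39 and 0.54.

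For Amotl2, r with Cyr61 was 0.28 and 0.21 in Rgs5-high and 0.34 and 0.62 in Dcn-high wells, and r with Ctgf was 0.17 and 0.17, and 0.23 and 0.30. In Trf-high wells of tumor 2 both were 0.50, and r of Amotl2 with log10 reads was 0.17 and 0.15 in Rgs5-high and 0.42 and 0.43 in Dcn-high wells. In Rgs5-high wells, most of which had no Wisp1 read, r of Wisp1 was 0.059 and -0.0060 with Ctgf and 0.097 and 0.056 with Cyr61. In Dcn-high wells the same values were 0.21 and 0.35, and 0.32 and 0.47, and there r of Wisp1 with log10 reads was also 0.25 and 0.44. With the mean of the other YAP and TAZ targets, r of Wisp1 was 0.35 and 0.23 in Rgs5-high and 0.33 and 0.55 in Dcn-high wells, beside 0.30 and 0.37, and 0.35 and 0.51, for Ctgf. With the number of genes read per well, r of Wisp1 was similar, at 0.33 and 0.30 in Rgs5-high and 0.34 and 0.55 in Dcn-high wells. For Ctgf it was 0.085 and 0.080, and 0.31 and 0.31. The part that the number of genes read plays in these values was not tested. The mean of the SRF and contractile genes had an r with Ctgf of 0.32 and 0.40 in Rgs5-high and 0.45 and 0.49 in Dcn-high wells, and the mean of the immediate early genes 0.21 and 0.19, and 0.31 and 0.32. For Cyr61 the immediate early genes gave 0.38 and 0.42, and 0.33 and 0.55.

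**Figure D5:**
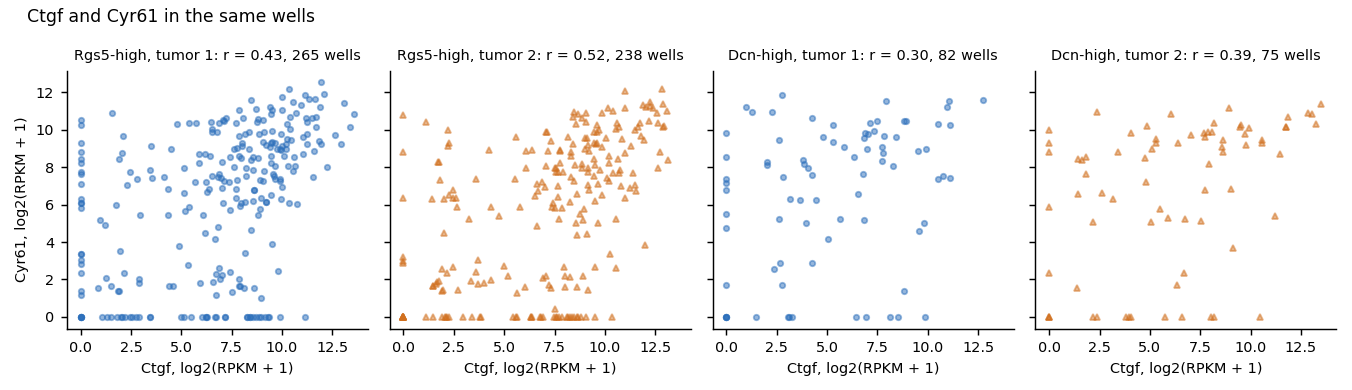
Ctgf (horizontal) against Cyr61 (vertical), both as log2(RPKM + 1), in each well of the Rgs5-high and Dcn-high classes, 1 panel per class and tumor with Pearson's r and the number of wells in its title. The values of r run from 0.30 to 0.52, and wells without a read of either gene lie on the axes.

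The genes most like each member were sought among 9908 genes read in at least 10% of the wells with a class, after taking out the mean of each class and tumor, and were ranked by the smaller r of the 2 tumors. Cyr61 was the gene most like Ctgf (r = 0.41 and 0.47), followed by Cnn2 (0.31 and 0.30) and Tagln (0.30 and 0.38), which encode the actin-binding proteins calponin-2 and transgelin. Ctgf was in turn the gene most like Cyr61, followed by Actg1, a cytoplasmic actin (0.44 and 0.39), and the zinc finger factor Klf6 (0.38 and 0.38). For Amotl2 the order was Vcl (0.31 and 0.31), Cyr61 (0.29 and 0.33) and Flna (0.27 and 0.28), encoding vinculin, the CCN protein itself and filamin A. Wisp1 was most like Ak1, an adenylate kinase (0.33 and 0.41), Col8a1, a short-chain collagen (0.32 and 0.43), and Inhba, a subunit of activin A (0.31 and 0.40), whereas its r was 0.15 and 0.15 with Cyr61 and 0.096 and 0.10 with Ctgf. Wisp2 was most like the matrix proteoglycan Prelp (0.35 and 0.38), the complement gene C4b (0.26 and 0.26) and the proteoglycan Fmod (0.20 and 0.23), over few wells with a read (5.97%). Nov and Ankrd1 were read in too few wells to be ranked.

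Wells with reads of both Top2a and Birc5, genes of dividing cells, made up 21 and 21 of the Rgs5-high wells. Ctgf had 1402 CPM in these wells against 2196 in the others in tumor 1, and 3608 against 2821 in tumor 2, so the summed CPM went opposite ways. The mean level of Ctgf was lower in the dividing wells of both tumors, at 6.40 against 6.89 and 6.50 against 7.16 log2(RPKM + 1). Cyr61 was at 538.9 against 1387 CPM and 1187 against 1110 CPM. Its mean level was 6.10 against 6.28 in tumor 1 and 6.76 against 5.57 log2(RPKM + 1) in tumor 2. Wisp1 was at 111.2 against 78.3 CPM and 150 against 98.6 CPM, and the dividing wells also had more reads per well (medians of 287564 against 197398 and 206947 against 190515).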

How the data were processed

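Single sorted cells of 2 mammary tumors were sequenced by the authors with Smart-seq2. The deposited counts are whole reads per RefSeq gene, from alignment by the authors to mm10 with STAR, and they are not normalized. The deposited RPKM of the authors also divides by gene length and scales with a total that holds the ERCC reads. Columns were matched to wells by name.

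The 7 genes, the gene lists and the class rule were chosen with earlier results of these data known. Of the wells 727 were kept, 373 and 354 in tumors 1 and 2, and 503 were Rgs5-high (265 and 238), 157 Dcn-high and 27 Trf-high. Counts were summed per class and tumor into 6 libraries of 1815459 to 55104252 reads. The 11715 genes that averaged 1 RPKM or more in the wells kept were tested with edgeR 4.0.16 (R 4.3.3, TMM, quasi-likelihood F-test), at a Benjamini-Hochberg adjusted p of 0.05 over all genes of a comparison, and the code was tested on simulated data. The p-values measure the spread between 2 tumors. DESeq2 1.42.0, other class rules, filters, library sizes and subsets of wells were alternatives. The SE of an edgeR fold change was derived as its absolute value divided by the square root of the F statistic. Levels are log2(RPKM + 1). Shares carry exact 95% binomial intervals, and for a count of 0 the limit is 3 counts of the total. Without molecular identifiers both cover counting error only. No doublet caller was run.

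The 6 libraries are paired by tumor. Their deviations from the class means correlated within a tumor by 0.13 (Rgs5-high with Dcn-high), 0.071 (Rgs5-high with Trf-high) and -0.0072 (Dcn-high with Trf-high). Likeness between genes was computed over the 354 and 333 wells with a class. Named genes were the 7 members, up to 4 called genes of each list with the largest change, the 3 genes most like each member read in at least 5% of wells, and Rgs5, Dcn and Trf. Yap1, Wwtr1 and Fos were added after their values were seen. A called gene of the lists is not reported here.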

Additional observations from a re-analysis of the deposited data

Results flagged for a closer look

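All 7 genes had reads in wells outside the comparisons, above what a count of 0 allows (0.462 CPM over the 40 wells without a class). In these 40 wells Ctgf was at 4125 CPM (read in 32 wells), Cyr61 at 1612 CPM (30 wells), Wisp1 at 437.4 CPM (23 wells), Wisp2 at 335.9 CPM (10 wells), Amotl2 at 86.3 CPM (19 wells), Ankrd1 at 4.0 CPM (1 well) and Nov at 3.69 CPM (1 well). By tumor, Wisp2 was at 476.5 and 216.2 CPM in these wells, above each of the 6 class libraries, and 1 well held 48.4% of its reads. Ctgf was at 2157 and 5799 CPM and Cyr61 at 1085 and 2061 CPM, and the values of tumor 2 were above each of the 6 class libraries. In tumor 1, Ctgf was just above the highest class library of that tumor (2115 CPM, Rgs5-high), and Cyr61 was below all of them. The median levels of Dcn and Trf in the 10 wells with Wisp2 were 9.76 and 8.04 log2(RPKM + 1), and that of Rgs5 was 3.49. In the 41 wells under 10000 reads, where 3 reads correspond to 29.9 CPM, Ctgf was at 788 CPM (79 reads in 24 wells) and Cyr61 at 199.5 CPM (20 reads in 15 wells).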

How the results depend on the processing

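The counts of called members changed with the following settings, given for Rgs5-high against Dcn-high, Rgs5-high against Trf-high and Dcn-high against Trf-high, where the reported counts were 0, 0 and 1. DESeq2 called 1, 1 and 3, where it called 14.9%, 26.2% and 25.4% of all genes. Without wells with Epcam they were 1, 2 and 4, where 4.06%, 10.0% and 8.98% of all genes were called. Leaving out the Trf-high library of tumor 1 also changed the counts, but it leaves 1 Trf-high library whose spread is taken from the other classes. Leaving out the well with the most reads of each member gave 0, 1 and 2. In that fit 5.87%, 12.9% and 11.5% of all genes were called, practically the shares of the reported fit. The medians of all genes hardly moved either (by -0.00011, -5e-05 and -5e-05). Genes other than the members thus appear to have kept their wells, so these shares are no background for this setting. Both of these settings were chosen after seeing the data. Wisp1 lost its call, leaving 0 for Dcn-high against Trf-high, with no margin in the class rule (adjusted p = 0.083), with the tumor as a replicate block (adjusted p = 0.057) and at an adjusted p of 0.001. Over its alternatives with a test its adjusted p in that comparison ran from 6.2e-06 to 0.083. The cause of these changes was not tested. The replicate block changed no other call of a member.

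Signs turned in 12 fold changes, 1 of which, Wisp2 without wells with Epcam, also gained a call. Of the others 18 gained a call and 2 lost one. Ctgf, Rgs5-high against Dcn-high, was -0.57 with ERCC totals, -0.029 with marker panels as the class rule and between -0.26 and 0.71 with 1 tumor left out. For Rgs5-high against Trf-high, Cyr61 was -0.066 with ERCC totals, and with 1 tumor left out Amotl2 ran from -0.16 to 1.86, Wisp2 from -4.52 to 9.72 and Ankrd1 from -0.98 to 8.70. Without wells with Epcam, Wisp2 was 9.37 and Ankrd1 8.95, and Ankrd1 was 0.58 with the replicate block and 8.30 without its top wells. The values from 8.30 to 9.72 are against Trf-high libraries left without a read, so they are no bound. Wisp2, Dcn-high against Trf-high, was -0.30 with equal weight of wells. With 1 tumor left out no residual spread remains, so no calls were made. Of the shares of wells, 28 moved outside their intervals, 14 of them with at least 5 reads in place of 1 and 10 with thinning. Mean levels moved by more than 1 SD in 25 cases.

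Of all genes tested, 5.88%, 12.8% and 11.5% were called. These shares changed by over 1.5 times with the block (3.005%, 8.21% and 7.10%), with DESeq2, without the Trf-high library of tumor 1 (16.1%, 22.1% and 21.4%) and with ERCC totals (10.38% and 19.9% in the first 2 comparisons). The Trf-high comparisons rest on 7 wells and 1815459 reads in tumor 1.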
